A study of Mus musculus with 24 samples.

Results

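The mouse mitochondrial genome encodes 37 genes, and all 37 were found by their chromosome among the 38293 genes of the mRNA count table. They comprise 13 protein-coding genes (called mRNAs here), 2 rRNAs and 22 tRNAs. Of the 37, 28 lie on the plus strand and 9 on the minus strand of the NCBIM37 assembly. They were taken by chromosome and not by a measured value, although earlier results of these data were known when the set was chosen. The 37 genes cover 15365 of the 16299 bases of the mitochondrial chromosome, so that almost the whole molecule is annotated as a gene.

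Mitochondrial DNA is transcribed from both strands into long precursor RNAs. The tRNAs punctuate these precursors, and their excision releases the mRNAs and rRNAs between them. All of the mRNAs encode membrane subunits of the respiratory chain or of ATP synthase: the ND subunits belong to complex I, cytochrome b to complex III, the CO subunits to complex IV and the ATP subunits to complex V. The other subunits of these complexes, and every protein that copies, transcribes or translates mitochondrial DNA, come from nuclear genes. In neurons the respiratory chain supplies most of the ATP that restores ion gradients after synaptic activity.

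The nucleus accumbens (NAc), a ventral striatal region of the reward circuit, was taken from C57BL/6J mice that were 9 weeks old by their labels. Subchronic Variable Stress (SCVS), 6 days of foot shock, tail suspension and restraint in alternation, was given to stressed males (SM) and stressed females (SF), whereas nonstressed males (NSM) and nonstressed females (NSF) served as same-sex controls, and the punches were taken 24 h after the final stressor. Females were in estrus or proestrus. Each of the 4 groups had 3 mRNA libraries, named here by group and number (NSM1 to SF3), and each library pooled 10 punches from 5 mice, so that an individual animal cannot be seen and p-values measure the spread between pools. The strain carried no transgene and no group received a drug. Libraries were made from the RNA fraction longer than mature tRNAs, with a poly(A) kit that does not mark strand, so a tRNA is counted here only as part of a longer RNA, and reads of overlapping genes on opposite strands cannot be told apart. In bulk tissue, fewer cells of a type and less RNA per cell cannot be told apart either.

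The libraries held 41076780 to 60867747 counted reads. The SM pools were less deep than the NSM pools, with 41076780 to 48592005 reads against 48872076 to 55929512. Markers of striatal projection neurons were read in every library, with a summed level of 4368 to 5569.6 CPM (reads of a gene per 1000000 reads on the tested genes, after TMM scaling of each library by a factor of 0.967 to 1.04). No library was left out.

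Mitochondrial RNA was among the most abundant RNA in these punches. The 10 most-read genes of the whole table were all mitochondrial, and mt-Co1, which encodes the catalytic subunit of complex IV, ranked 1. The 13 mRNAs held 93.3% of the reads on the 37 genes, the 2 rRNAs held 6.66% and the 22 tRNAs held 0.0624%.

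In unstressed males the 37 genes took 10.1%, 9.64% and 8.78% of the counted reads of NSM1, NSM2 and NSM3. In stressed males they took 11.8%, 11.6% and 10.7% in SM1, SM2 and SM3. Each SM pool lay above each NSM pool, with means of 11.4% ± 0.571 and 9.51% ± 0.678 (SD, n = 3 each), a difference of 1.86 percentage points. In females the share was 9.73%, 9.39% and 8.61% in NSF1, NSF2 and NSF3, and 9.75%, 9.86% and 9.93% in SF1, SF2 and SF3. The female means were 9.24% ± 0.575 and 9.85% ± 0.0888 (SD, n = 3 each), a difference of 0.602 percentage points, and here the lowest stressed pool and the highest unstressed pool were almost level. With the mRNAs alone these pools overlapped, at 9.07% in SF1 and 9.08% in NSF1, and without NSF3 the female difference was 0.285 points. The female difference was smaller than the male one by 1.26 percentage points. Unstressed females and unstressed males differed by 0.267 points in favor of males, which was within the spread of either group. The share sums genes of very unequal level, so it is given as a description without a test.

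**Figure D1:**
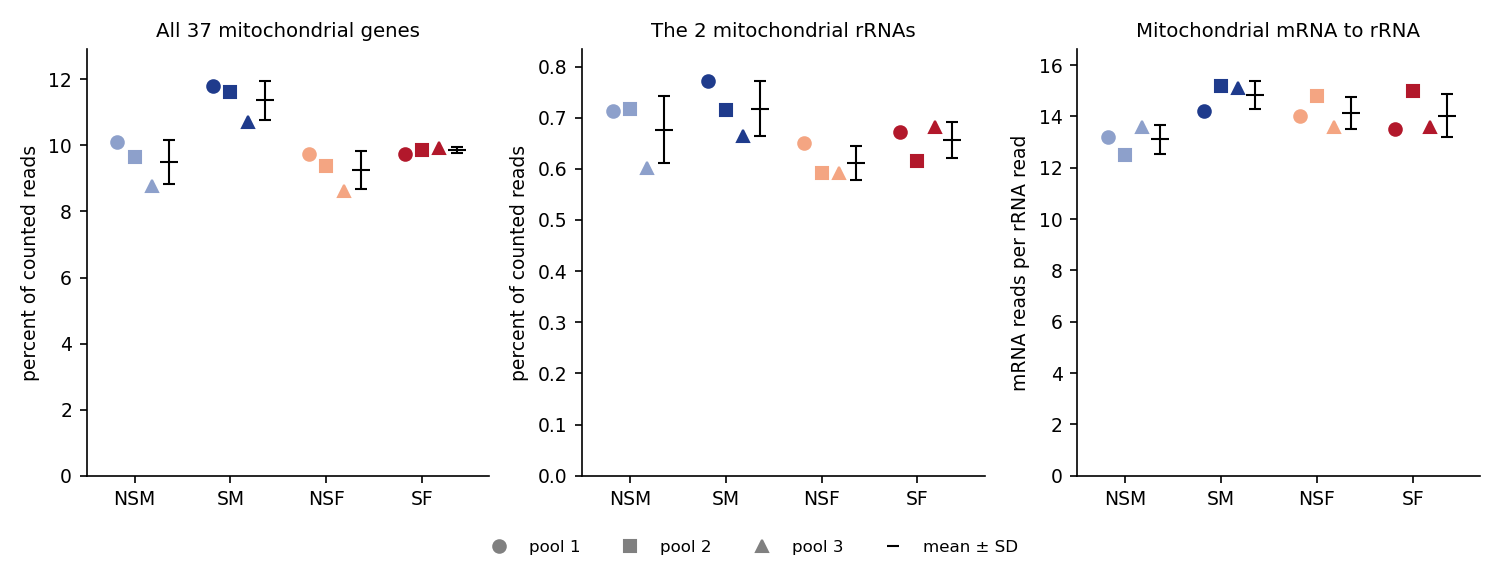
Share of counted reads on all 37 mitochondrial genes (left, percent), share on the 2 mitochondrial rRNAs (middle, percent) and mitochondrial mRNA reads per rRNA read (right) in each pool, with the group mean ± SD (n = 3) in black. The 3 SM pools, at 10.7% to 11.8%, sit above the 3 NSM pools, at 8.78% to 10.1%, on the left, whereas the rRNA shares of these groups overlap in the middle.

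The male difference was seen in the mRNAs, whereas the rRNA shares overlapped. The rRNA share was 0.713%, 0.716% and 0.601% in NSM and 0.772%, 0.715% and 0.665% in SM. Accordingly, the number of mitochondrial mRNA reads per mitochondrial rRNA read was 13.2, 12.5 and 13.6 in NSM and 14.2, 15.2 and 15.1 in SM, with no overlap. The same ratio was 14.0, 14.8 and 13.6 in NSF and 13.5, 15.0 and 13.6 in SF, which overlapped with each other. The 2 rRNAs also kept a near-fixed proportion, with 1.85 to 2.02 mt-Rnr2 reads per mt-Rnr1 read over the 12 libraries, although the 3 SF pools (1.85 to 1.88) were all below the 3 NSF pools (1.9 to 1.99).

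Levels per kilobase of gene differed widely among the well-read members. Among the 12 well-read mRNAs, mt-Co1 was highest at 15813 CPM per kb and mt-Nd6 was lowest at 2933 CPM per kb, a ratio of 5.39. The genes of complex IV and V were next, with mt-Co3 at 13083, mt-Atp6 at 11991 and mt-Co2 at 11979.9 CPM per kb, the last pair being indistinguishable. Cytochrome b (mt-Cytb) followed at 9362 CPM per kb. The complex I genes were lower than these, from mt-Nd4 at 7596, mt-Nd1 at 6592 and mt-Nd2 at 5009 down to mt-Nd5 at 3464, mt-Nd3 at 3339 and mt-Nd6 at 2933 CPM per kb, and mt-Atp8, a small complex V subunit, lay among the last of these at 3235 CPM per kb. The rRNAs were at 2383 CPM per kb for mt-Rnr1, the small-subunit rRNA, and at 2773 CPM per kb for mt-Rnr2, the large-subunit rRNA, which is close to the lowest mRNAs. These are levels in poly(A)-selected libraries, and because the kit does not mark strand, reads over mt-Nd6 may include plus-strand RNA. Of the 204 bases of mt-Atp8, 43 are shared with mt-Atp6. How reads on them were counted is not given, so its level per kb is less certain.

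**Figure D2:**
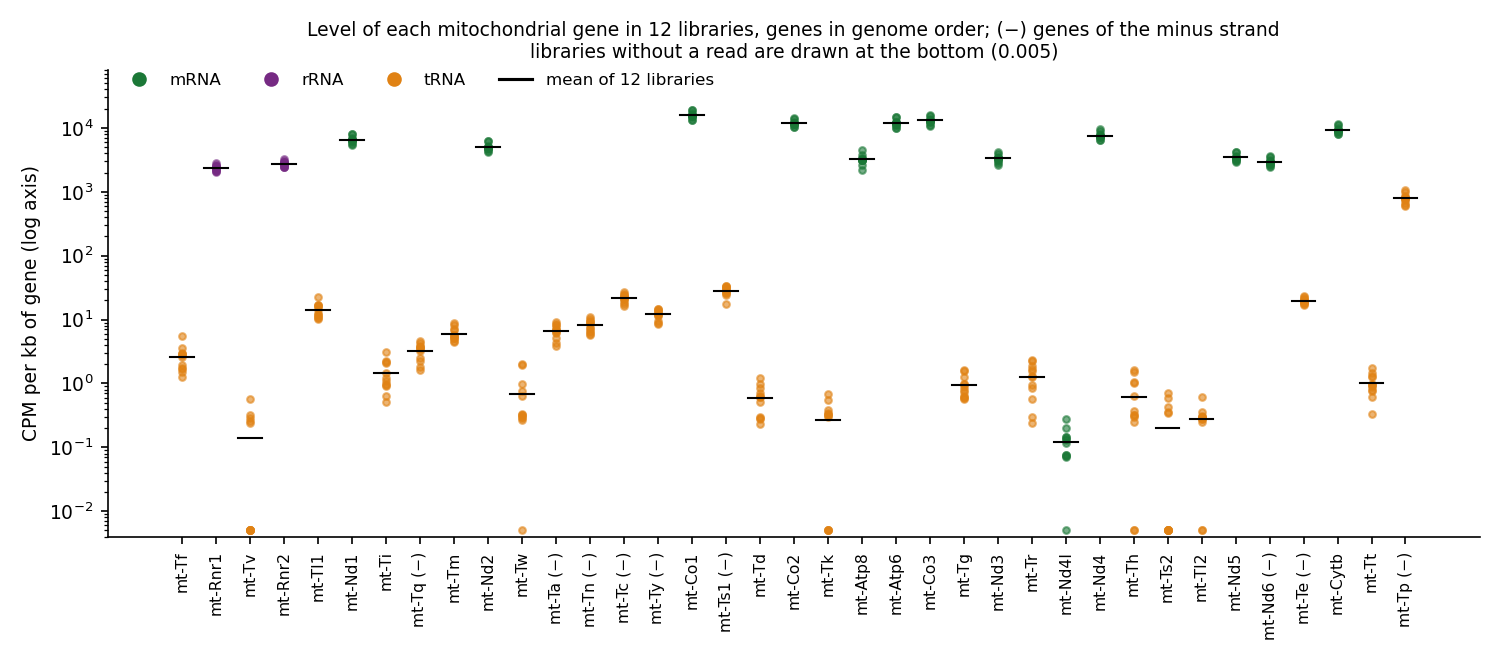
Level of each of the 37 genes in genome order, in CPM per kb of gene on a log axis, with 1 point for each of the 12 libraries and a bar for their mean. The mRNAs and rRNAs lie between 2383 (mt-Rnr1) and 15813 CPM per kb (mt-Co1), and the tRNAs lie far below apart from mt-Tp at 801. Only mt-Nd4l, at 0.12, is a protein-coding gene counted as low as the tRNAs.

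Neighboring genes of this genome overlap at 9 places, and reads that fall on the shared bases belong to no single gene. The largest overlap joins the complex V genes mt-Atp8 and mt-Atp6 on the plus strand, and the stretch below is shown because it contains 43 bases (capitals) that are read in both genes.
mt-Atp8 and mt-Atp6, chrM:7912-7984, plus strand: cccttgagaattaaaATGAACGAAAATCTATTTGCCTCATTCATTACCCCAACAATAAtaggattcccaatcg
The next stretch is shown because mt-Nd6, the only mRNA of the minus strand, ends inside the end of mt-Nd5, so that 14 bases (capitals, given on the plus strand) belong to both and the libraries cannot assign them.
end of mt-Nd5 and mt-Nd6, chrM:13537-13580, plus strand: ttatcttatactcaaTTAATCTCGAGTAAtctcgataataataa

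Poly(A) addition also completes the coding sequence of some of these mRNAs, which is why their ends are shown. In 3 of the 13 mRNAs the annotated gene stops at the first base of the stop codon (capital), and polyadenylation supplies the remaining bases of the codon. The end of mt-Co1, with its complete stop codon in capitals, is given for comparison.
mt-Cytb end, chrM:15259-15288, plus strand: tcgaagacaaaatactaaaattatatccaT
mt-Co3 end, chrM:9361-9390, plus strand: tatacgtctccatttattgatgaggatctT
mt-Nd4 end, chrM:11515-11544, plus strand: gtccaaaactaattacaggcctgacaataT
mt-Co1 end, chrM:6843-6872, plus strand: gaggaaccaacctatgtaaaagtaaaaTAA

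A single protein-coding gene had almost no counted reads. The complex I gene mt-Nd4l had 2, 2 and 2 reads in NSM, 0, 2 and 1 in SM, 1, 5 and 2 in NSF and 1, 3 and 1 in SF, whereas the other 12 mRNAs had 21069 to 1371316 reads per library. Its neighbor mt-Nd4, which overlaps the last 7 bases of mt-Nd4l (capitals) with no tRNA gene between them, had at least 419085 reads in every library. The sequence is shown because all of its 297 bases are also found, without a mismatch, on chromosome 1.
mt-Nd4l, chrM:9877-10173, plus strand: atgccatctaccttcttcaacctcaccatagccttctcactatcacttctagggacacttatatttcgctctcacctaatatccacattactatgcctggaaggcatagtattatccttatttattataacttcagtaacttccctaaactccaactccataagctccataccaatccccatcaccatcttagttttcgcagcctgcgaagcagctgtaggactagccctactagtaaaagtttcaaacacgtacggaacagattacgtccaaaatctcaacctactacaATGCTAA
The chromosome 1 copy is annotated as Gm10222 (chr1:24619243-24619539), which itself had 3 to 16 reads per library. It is part of a nuclear copy of mitochondrial bases 6390 to 11042, at chr1:24618374-24623027, that matched over 4654 aligned bases with 99.94% identity, 2 mismatches and 1 gap. In all, 14 of the 37 genes had a full-length nuclear copy without a mismatch or a gap, 5 of them mRNAs (mt-Co2, mt-Atp8, mt-Atp6, mt-Co3 and mt-Nd4l) and 9 of them tRNAs. The longest nuclear stretches, on chromosomes 1, 2 and 4, held 7 annotated genes of the count table. Together these 7 had reads equal to 0.013% of those on the mitochondrial genes, and copies elsewhere were not counted. How reads that match both places were assigned is not given in the sources used here, so counts of genes with a nuclear copy are less certain. The low counts of mt-Nd4l therefore need not show the level of its RNA, although mt-Co2, mt-Atp6 and mt-Co3, also with exact copies, were well read.

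The 22 tRNAs were barely read, with 1 exception. The proline tRNA gene mt-Tp held 85.5% of all tRNA reads, with 1950 to 3391 reads per library, and none of the other 21 tRNAs exceeded 115 reads in a library. mt-Tp is the last gene before the noncoding control region. The rest differed by strand. The other 7 tRNAs of the minus strand all passed the read filter, which asked for more than 5 reads in 80% or more of a condition's libraries, with a median of 39.3 reads per library, against 3 of 14 tRNAs of the plus strand, with a median of 2.67 reads. Because the kit does not mark strand, a read over a minus-strand tRNA may also come from a plus-strand precursor.

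The 2 tRNAs whose stress difference is described below are shown in full. The first lies next to the control region and is printed from its own (minus) strand, and the second, a leucine tRNA, lies between mt-Rnr2 and mt-Nd1.
mt-Tp, chrM:15356-15422, minus strand: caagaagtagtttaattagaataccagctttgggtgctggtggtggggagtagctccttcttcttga
mt-Tl1, chrM:2676-2750, plus strand: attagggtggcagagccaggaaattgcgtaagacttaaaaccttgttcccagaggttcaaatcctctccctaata

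The read filter kept 25 of the 37 genes for testing: 12 mRNAs, both rRNAs and 11 tRNAs. Of these, 24 passed in each of the 4 groups, and 1, the phenylalanine tRNA mt-Tf, passed only through its SM and SF pools, where it was higher. The 12 genes left untested were mt-Nd4l and 11 tRNAs, none with more than 11 reads in a library. Differences were fitted with limma on voom-transformed counts over all 18593 genes that passed the filter, and p-values were adjusted over all of them (Benjamini-Hochberg). A gene was called regulated at an unadjusted p under 0.05 with a fold change of at least 1.3. With 3 pools against 3, an exact permutation test could not give a two-sided p below 0.1.

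In males, SCVS was accompanied by higher levels of the mitochondrial mRNAs. All 12 mRNAs tested were higher in SM, by 0.28 to 0.37 on the log2 scale (21.0% to 28.8%), with a median of 0.33 against −0.01 for all genes tested, although under quantile normalization, which gives each rank the same value in every library, the median of the 12 was 0.01 and 3 of them (mt-Co2, mt-Co3 and mt-Nd5) turned to −0.02 to −0.01. All 12 had an unadjusted limma p under 0.05, and 9 kept an adjusted p under 0.05. Under quantile normalization these counts were 3 and 1. The 10 most-read genes are all members, so that scaling cannot show a change that those 10 share. mt-Tp brought the count of members past the adjusted threshold to 10 of 25, beside 3.32% of all genes tested in that comparison. In all, 14 members were higher at an unadjusted p under 0.05, beside 9.93% of all genes, and none was lower. The mRNA differences were just under the fold of 1.3 that the calling rule asks for, so that only 2 of 25 members were called, both tRNAs and both higher, beside 2.36% of all genes called higher and 6.44% called in either direction. Of the 24 members that passed the read filter in every group, 20 were positive, beside 47.3% of all genes. For 11 of the 12 mRNAs each SM pool was above each NSM pool, beside 11.3% of all genes tested. The members come from shared precursor RNAs and were read in the same pools, so such counts, here and below, are not independent results.

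Among the complex I mRNAs, mt-Nd5, which encodes one of the proton-pumping subunits, had the smallest p. It was at 6031, 5699 and 5307 CPM in NSM and at 7673, 7552 and 6617 CPM in SM. Each stressed pool was above each control pool, and the difference was 0.36 on the log2 scale (SE 0.0692, limma adjusted p = 0.0183). mt-Nd6 is encoded on the other strand, and because the kit does not mark strand its reads may also come from plus-strand RNA. It was at 1439, 1394 and 1301 CPM in NSM and at 1899, 1801 and 1609 CPM in SM. Its difference was the same size, 0.36 (SE 0.0712, limma adjusted p = 0.0195), with no overlap of the groups. mt-Nd1 (0.37), mt-Nd2 (0.33) and mt-Nd4 (0.33) were likewise higher, with limma adjusted p-values of 0.0273, 0.0342 and 0.0328. mt-Nd3, a short gene, was at 1162, 1163 and 988 CPM in NSM and 1462, 1371 and 1184 CPM in SM, and its difference of 0.28 (SE 0.0946) missed the adjusted threshold (limma adjusted p = 0.122).

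The single complex III mRNA, mt-Cytb, was at 10759, 9985 and 9089 CPM in NSM and 13054, 12939 and 11471 CPM in SM. The groups did not overlap and the difference was 0.33 (SE 0.0701, limma adjusted p = 0.0256). Of the complex IV mRNAs, mt-Co1 was at 23972, 23666 and 20721 CPM in NSM and 29245, 29159 and 26059.7 CPM in SM, again without overlap, a difference of 0.31 (SE 0.0705, limma adjusted p = 0.0351). mt-Co3 was higher by 0.32 (limma adjusted p = 0.0458), and mt-Co2 by 0.28, with a limma adjusted p of 0.058. Of the complex V mRNAs, mt-Atp6 was higher by 0.35 (limma adjusted p = 0.0365). mt-Atp8 was the one mRNA whose male groups overlapped, at 681, 645 and 535 CPM in NSM and 909, 779 and 654 CPM in SM, and its difference of 0.33 came with an SE of 0.142 and a limma adjusted p of 0.2.

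The rRNA differences were smaller than those of the mRNAs. mt-Rnr1 was at 2332, 2453 and 1950.3 CPM in NSM and 2729.6, 2522 and 2201 CPM in SM. mt-Rnr2 was at 4704, 4658 and 3839.9 CPM in NSM and 5254, 4870.4 and 4339.8 CPM in SM. In both genes SM3 was below NSM1 and NSM2, and the differences of 0.15 (SE 0.0886) and 0.13 (SE 0.0874) did not pass the test, with limma adjusted p-values of 0.353 and 0.394.

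The 2 tRNAs that were called in males were very unlike in depth. mt-Tp was at 49.4, 54.6 and 40.7 CPM in NSM and 67.7, 72.1 and 57.8 CPM in SM, without overlap, a difference of 0.45 (SE 0.113, limma adjusted p = 0.0458). mt-Tl1 had 63, 43 and 41 reads in NSM and 50, 79 and 55 in SM, which is 1.11, 0.874 and 0.809 CPM against 1.26, 1.68 and 1.22 CPM. Those groups did not overlap in CPM, yet the difference of 0.57 had an SE of 0.225 and a limma adjusted p of 0.17. mt-Tf had 5 to 14 reads in NSM and 8 to 18 in SM, and since it was tested only through the groups in which it was higher, no test of it is given. The other 8 tested tRNAs had 4 positive and 4 negative differences, none with an unadjusted p under 0.05.

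**Figure D3:**
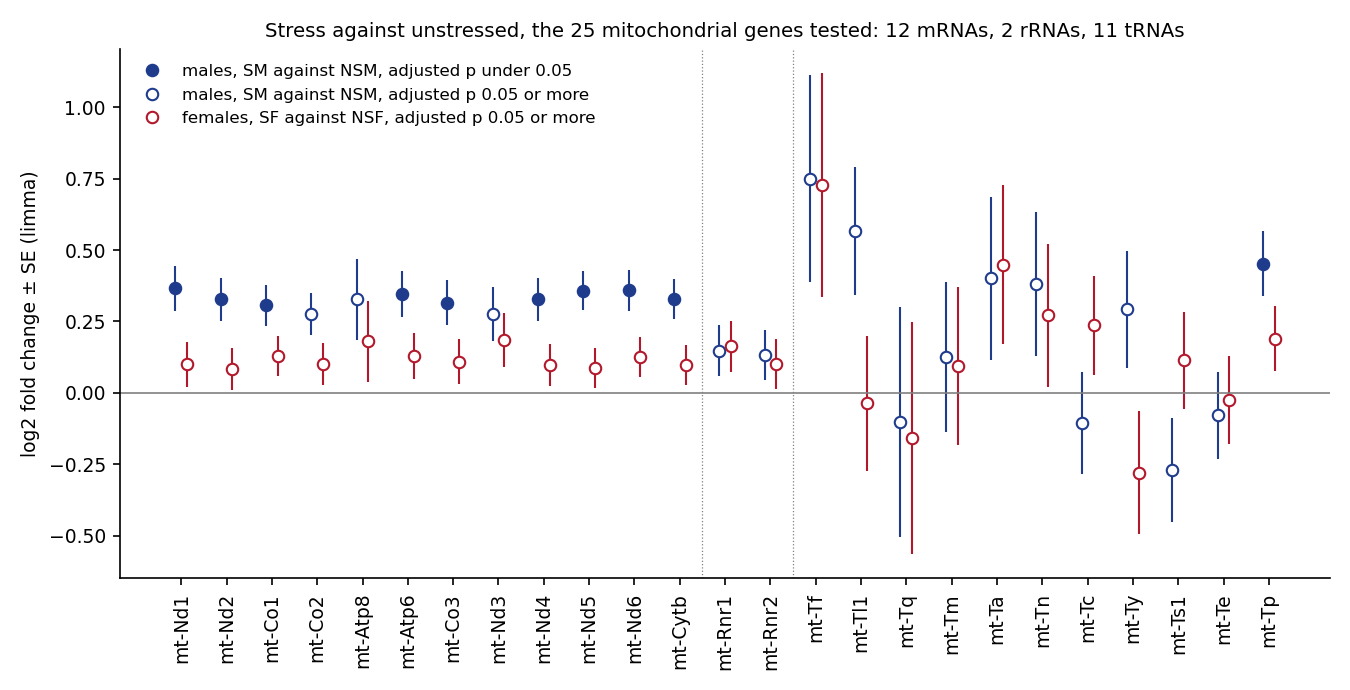
Log2 fold change of stressed against unstressed pools, with its SE, for the 25 mitochondrial genes tested in males (blue) and females (red), filled where the limma adjusted p was under 0.05. The 12 mRNAs form a level row at 0.28 to 0.37 in males and at 0.08 to 0.19 in females, while the tRNAs scatter with wide errors. Under quantile normalization the median of the male mRNAs was 0.01, with 3 values below 0. That scaling cannot show a change shared by the 10 most-read genes, all of them members. mt-Tf was tested only through the groups in which it was higher.

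The result in males rested on few pools. With SM1, SM2 or NSM3 left out in turn, 0 members passed the adjusted threshold, and with NSM2 left out 1 did, whereas without NSM1 the count was 10 and without SM3 it was 12. The count over all genes moved as well. It was 618 with all libraries and 182, 79, 101 and 166 without SM1, SM2, NSM3 and NSM2. Without NSM1 it was 725, and without SM3 it was 972. Leaving out SF3, which belongs to neither male group, gave 5 members (446 of all genes). Fitting the 6 male libraries alone gave 2 members (354 of all genes). In each of these fits all 12 mRNAs remained positive, and at least 10 of 12 had an unadjusted p under 0.05. The number of members called moved more, to 13 without NSM1 (12 higher, 1 lower), 12 without SM3 and 5 without SM1 (4 higher, 1 lower). It was 4 without NSM2, 1 without SM2 and 0 without NSM3. All genes called, 1198 with all libraries, went to 1552, 1615 and 1059 without NSM1, SM3 and SM1. They went to 1241, 916 and 831 without NSM2, SM2 and NSM3.

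**Figure D4:**
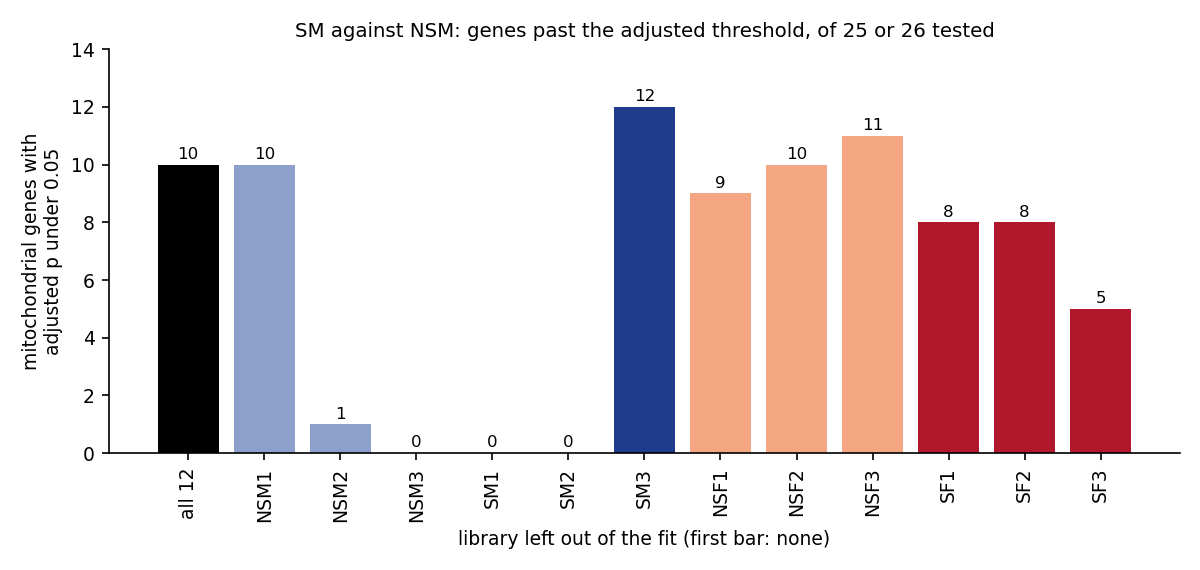
Number of mitochondrial genes with a limma adjusted p under 0.05 in SM against NSM, with all 12 libraries (black) and with each library left out in turn. The count falls from 10 to 0 or 1 without NSM2, NSM3, SM1 or SM2 and stays between 5 and 12 without any of the others. Over all genes the count of 618 fell to between 79 and 182 without NSM2, NSM3, SM1 or SM2. It lay between 446 and 972 without any of the others.

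Other measures moved with the male groups. Of the erythroid markers, 5 of 5 matched were higher in each SM pool than in each NSM pool, beside 11.3% of all genes. They summed to 21.8 to 27.4 CPM in NSM and 38.5 to 47.2 CPM in SM. Markers of cortical glutamatergic neurons (5 of 7 higher) summed to 6.06 to 22.7 CPM in NSM and 50.4 to 211 CPM in SM, and myelin markers (4 of 6 higher) to 4601 to 5145 CPM in NSM and 5528 to 5559 CPM in SM. Nucleus-retained RNAs (0 of 4 without overlap in males) summed to 5228, 4686 and 6978 CPM in NSM and 3524, 3582 and 5524 CPM in SM. In females (2 of 4 lower in each SF pool) they summed to 4573, 5014 and 5043 CPM in NSF and 4628, 4278 and 3593 CPM in SF. Within each of the 4 groups the pool with the highest sum (NSM3, SM3, NSF3 or SF1) had the lowest mitochondrial share. Choroid plexus markers (2 of 6 lower in each SM pool) summed to 109 CPM in NSM1 and 34.4 to 39.7 CPM in the other male pools. In NSF the erythroid, cortical and myelin sums also lay above each NSM pool, at 29.8 to 38.9, 22.9 to 387 and 5250.4 to 5622 CPM. The choroid plexus and nucleus-retained sums of NSF and NSM overlapped, as did their mitochondrial shares. The marker lists were chosen with earlier results of these data known. The study reported Alas2, an erythroid marker, and Slc17a7, a cortical marker, as upregulated in stressed males. None of these lists had a marker at 0 in every library. Their part in the mitochondrial result, and that of the lower depth of the SM pools, was not tested.

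In females the stress differences were positive but none passed the test. The 12 mRNAs differed between SF and NSF by 0.08 to 0.19 on the log2 scale, with a median of 0.1, although only 7 of them stayed positive under quantile normalization. That scaling cannot show a change shared by the 10 most-read genes, all of them members. Of the 24 members that passed the read filter in every group, 20 were positive, beside 48.4% of all genes. With limma, 0 of 25 members had an unadjusted p under 0.05, beside 1.94% of all genes that were higher and 2.29% that were lower at that threshold, and edgeR and DESeq2 also gave 0 of 25. Consequently 0 of 25 members were called, beside 1.73% of all genes. The smallest limma adjusted p of any member was 0.948, and 0% of all genes passed the adjusted threshold in females.

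The smallest p among the female mRNAs belonged to mt-Nd3, at 1131, 1068 and 899 CPM in NSF and 1171, 1113 and 1227 CPM in SF. NSF1 lay above SF2, so the groups overlapped, and the difference was 0.19 (SE 0.0944, limma adjusted p = 0.948). mt-Nd5 was at 6261, 6129 and 5534 CPM in NSF and 6139, 6496 and 6383 CPM in SF, with a difference of 0.09. mt-Nd6 was at 1508, 1429.7 and 1285 CPM in NSF and 1506, 1602 and 1495 CPM in SF, with a difference of 0.13. Both pairs of groups overlapped. mt-Co1 was at 23835, 22579.8 and 20673 CPM in NSF and 24244, 24405 and 24613 CPM in SF, where the 3 stressed pools were narrowly above all controls, a difference of 0.13 (SE 0.0704). Of the 12 mRNAs, 6 showed this order in TMM-scaled CPM, beside 4.9% of all genes tested, and 4 did per counted read without scaling.

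The other members were similar in females. mt-Rnr1 was at 2158, 2016 and 2012 CPM in NSF and 2355, 2159 and 2419.8 CPM in SF, and mt-Rnr2 at 4299.9, 3931 and 3824 CPM in NSF and 4423, 4003 and 4500.4 CPM in SF, with differences of 0.16 and 0.10. The rRNA differences were thus of a size with those in males. mt-Tp was at 55.0, 45.0 and 41.4 CPM in NSF and 53.6, 52.1 and 54.2 CPM in SF, a difference of 0.19, and mt-Tl1 was at 0.879, 1.29 and 0.807 CPM in NSF and 0.762, 1.21 and 0.961 CPM in SF, a difference of −0.04. None of these passed the test.

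**Figure D5:**
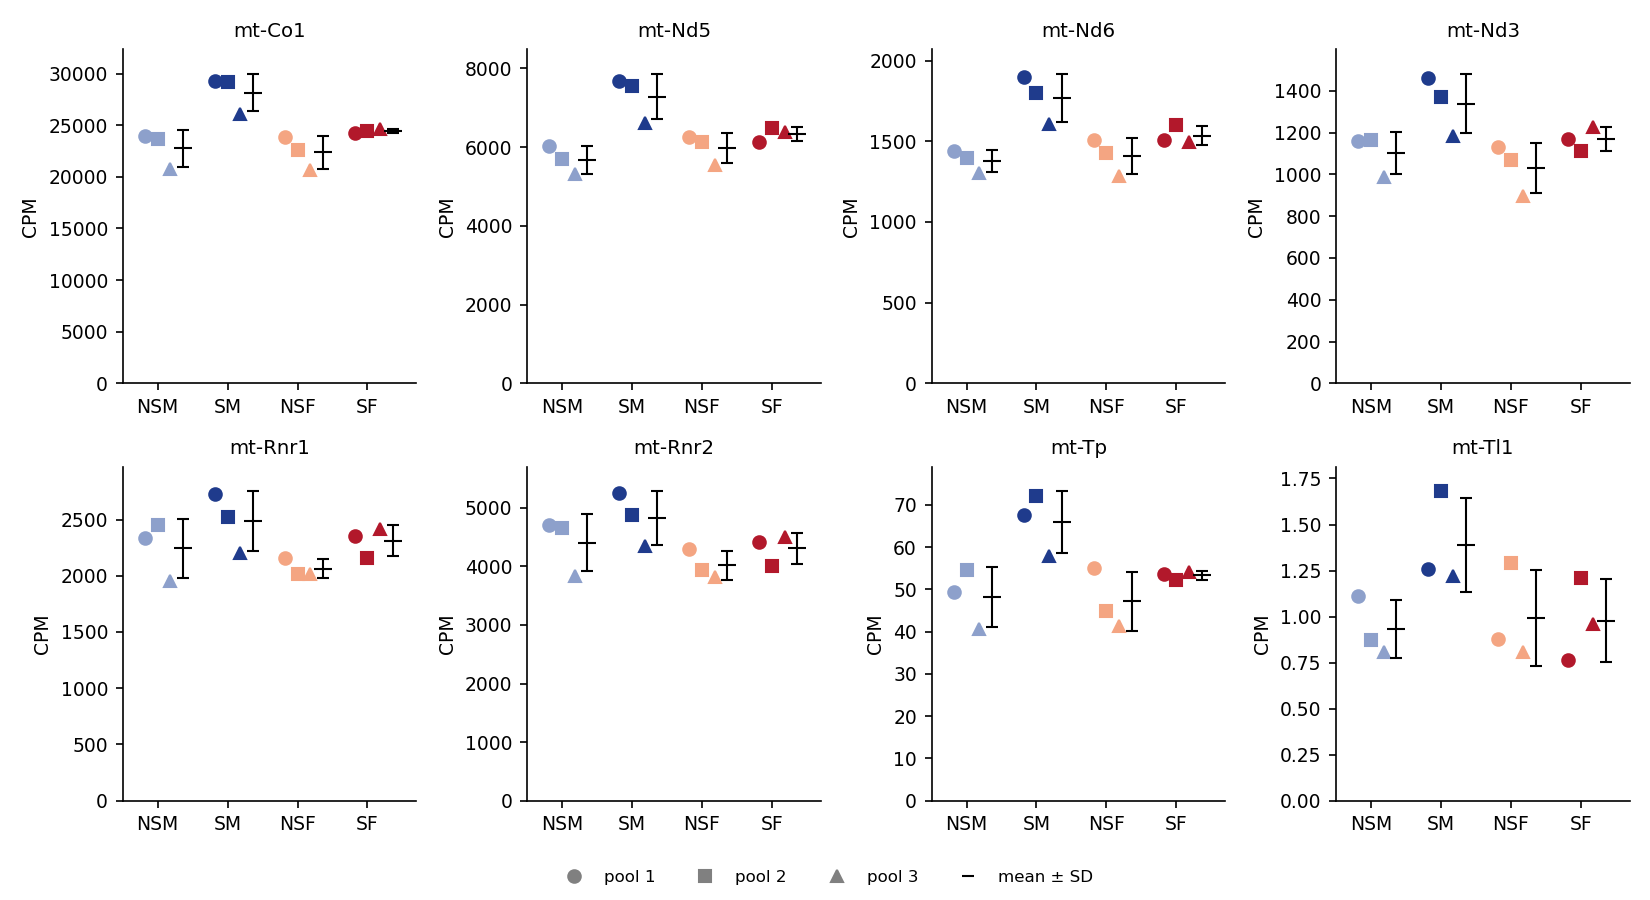
Level in CPM of 8 mitochondrial genes in each pool, with the group mean ± SD (n = 3) in black and every axis starting at 0. In mt-Co1, mt-Nd5, mt-Nd6, mt-Nd3, mt-Tp and mt-Tl1 the SM pools sit above the NSM pools, whereas in mt-Rnr1 and mt-Rnr2 these groups overlap and the female groups lie close together in most panels.

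Whether the stress difference itself differed between the sexes was tested by the interaction of sex and stress. All 12 mRNAs had a smaller stress difference in females, by 0.09 to 0.27 on the log2 scale, although under quantile normalization 9 of the 12 did, with a median interaction of −0.01. That scaling cannot show a change shared by the 10 most-read genes, all of them members. Of the 12, 6 had an unadjusted limma p under 0.05 (mt-Nd1, mt-Nd2, mt-Nd4, mt-Nd5, mt-Nd6 and mt-Cytb), beside 4.4% of all genes in that direction. None passed the adjusted threshold, beside 0.0269% of all genes, and neither edgeR nor DESeq2 gave a member past it (4 and 6 members at an unadjusted p under 0.05). The smallest p was that of mt-Nd5, with an interaction of −0.27 (SE 0.0978, limma adjusted p = 0.407). For mt-Nd6 the interaction was −0.23 (SE 0.101, limma adjusted p = 0.493). The rRNA interactions were 0.02 (SE 0.125) and −0.03 (SE 0.123), and 0 of 25 members were called, beside 4.42% of all genes.

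No mitochondrial gene passed the test between unstressed females and unstressed males. The 12 mRNAs differed between NSF and NSM by −0.10 to 0.07 on the log2 scale. The pools of the groups overlapped for all 25 members tested, whereas without overlap 11% of all genes were higher and 8.45% lower in NSF. With limma, 0 of 25 members had an unadjusted p under 0.05, beside 10.2% of all genes that were higher and 5.17% that were lower, and edgeR and DESeq2 also gave 0. None was called, beside 5.31% of all genes, or passed the adjusted threshold, beside 0.285%. mt-Nd5 had the smallest p of the mRNAs, with a difference of 0.07 (SE 0.0691, limma adjusted p = 0.657). Among all members mt-Rnr2 had the smallest p, with a difference of −0.13 (SE 0.0873, limma adjusted p = 0.521). The NSM pools enter both this comparison and the male stress comparison, so that the values of each are given on their own.

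The proportions of the mRNAs among themselves hardly moved. mt-Co1 made up 25.6% to 26.7% of mitochondrial mRNA reads over the 12 libraries, mt-Cytb 11.3% to 11.6%, and the complex I genes together 32.4% to 33.8%. Small shifts were seen in males for mt-Co2, whose proportion was 8.87%, 8.91% and 8.95% in NSM and 8.74%, 8.51% and 8.61% in SM, and for mt-Nd1, with 6.77%, 6.52% and 6.6% in NSM and 6.79%, 6.91% and 6.8% in SM. In both cases the groups did not overlap. In unstressed animals the proportion of mt-Nd5 was higher in females, at 6.94%, 6.94% and 6.99% in NSF against 6.5%, 6.43% and 6.74% in NSM. These are proportions of a fixed whole, so that one can rise only where another falls, and they were not tested.

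By their place in the stretch that is copied on chromosome 1, the 5 tested mRNAs wholly inside it differed by 0.28 to 0.35 on the log2 scale in males. The 2 that lie partly inside it, mt-Co1 and mt-Nd4, differed by 0.31 to 0.33, and the 5 outside it differed by 0.33 to 0.37. Those 5 are not a group without nuclear copies. Only mt-Nd1 had no match, whereas mt-Nd2 matched in part on chromosome 2 (96.67% identity). On chromosome 4, mt-Nd5, mt-Nd6 and mt-Cytb matched at 92.31%, 93.64% and 92.91% identity.

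The nuclear genes that serve the mitochondrial genome were examined as a list of 60 genes for its replication, transcription, RNA processing and translation and for regulators of mitochondrial genes, all of which were tested. In males 1 gene was called higher and 1 lower, beside 6.44% of all genes called in either direction, the median difference was −0.03, and 26 of 60 were positive. The one called higher was Mtrf1, a mitochondrial release factor, at 6.83, 6.95 and 5.98 CPM in NSM and 9.44, 8.8 and 7.91 CPM in SM, a difference of 0.40 (SE 0.0911, limma adjusted p = 0.034). The one called lower was Mgme1, an exonuclease of mitochondrial DNA replication, with a difference of −0.56, overlapping groups and a limma adjusted p of 0.138. Gabpa, a nuclear respiratory factor subunit, was at 43.7, 47.0 and 45.4 CPM in NSM and 40.0, 40.8 and 38.1 CPM in SM. It was lower in SM by 0.19 on the log2 scale (limma adjusted p = 0.0488). None of the 10 transcription genes was called, although 1 was higher and 1 lower at an unadjusted limma p under 0.05, beside 9.93% and 11.5% of all genes. Tfam, the packaging and transcription factor of mitochondrial DNA, had a difference of 0.05 (SE 0.0599). In females 0 of 60 were called, beside 1.73% of all genes, with 2 at an unadjusted p under 0.05. Mtrf1 was at 8.18, 6.98 and 7.29 CPM in NSF and 7.33, 7.49 and 7.71 CPM in SF. Gabpa was at 38.8, 40.3 and 39.9 CPM in NSF and 43.4, 40.2 and 40.8 CPM in SF. Each NSF pool was above each NSM pool for Mtrf1 and below each for Gabpa, beside 11% and 8.45% of all genes. For both genes the NSM pools thus lay apart from SM and from NSF. The interaction of Mtrf1 was −0.38, past the calling rule but with a limma adjusted p of 0.365. Between unstressed sexes Esrra, an orphan nuclear receptor that regulates mitochondrial genes, was higher in females, at 38.1, 39.8 and 40.8 CPM in NSF and 22.1, 31.6 and 33.2 CPM in NSM, a called difference of 0.48 with a limma adjusted p of 0.11.

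The nuclear-encoded subunits of complexes I to V were examined as a list, of which 73 of 74 genes were matched and tested, including 4 of complex II, which has no mitochondrially encoded subunit. In males none was called, 58 of 73 were positive, and the median difference was 0.10 on the log2 scale, against 0.33 for the mitochondrial mRNAs. Under quantile normalization the medians were 0.11 for the nuclear subunits and 0.01 for the mitochondrial mRNAs. The 2 cannot be ranked there, since that scaling removes a change shared by the 10 most-read genes, all of them mitochondrial. At an unadjusted p under 0.05, 21 were higher and 1 was lower, beside 9.93% and 11.5% of all genes. Complex IV had 7 such genes of 10, all higher, with a median of 0.18, and complex I had 7 higher and 1 lower of 35, with a median of 0.06. Ndufb9, an accessory subunit of complex I, alone passed the adjusted threshold, at 95.2, 101 and 89.7 CPM in NSM and 115, 110 and 112 CPM in SM, a difference of 0.24 (limma adjusted p = 0.0282). The summed level of the 73 genes was 7552, 7684 and 6956 CPM in NSM and 8197, 7956 and 7703 CPM in SM, without overlap. In females 58 of 73 were again positive, with a median of 0.05, and none had an unadjusted p under 0.05 or was called. Between unstressed sexes Uqcrq, a complex III subunit, was called higher in females, at 37.8, 44.2 and 44.8 CPM in NSF and 18.6, 28.8 and 33.5 CPM in NSM, a difference of 0.70 with a limma adjusted p of 0.106. At an unadjusted limma p under 0.05, 19 of 73 were higher in NSF and 0 lower, beside 10.2% and 5.17% of all genes. Ndufb9 was at 109.8, 104 and 104 CPM in NSF, above each NSM pool. The NSM pools thus lay low against both SM and NSF for part of this list.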

How the data were processed

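Raw read counts per gene, as deposited by the authors, were used for the 12 mRNA libraries. Per the labels and methods, the authors aligned 50 bp paired-end reads to NCBIM37 (Ensembl version 67) with TopHat2 and counted them with HTSeq, and the strand and multi-mapping settings are not given in the sources used here. Gene names, positions and sequences were taken from the NCBIM37 genome and its GENCODE annotation. Nuclear copies were searched with blastn 2.17.0 (E-value at most 1e-10). The small RNA files were not analysed here. The members and gene lists were chosen with earlier results of these data known.

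From the counts, genes above 5 reads in 80% or more of a condition's libraries were kept, scaled by TMM (edgeR 4.0.16) and fitted over 4 groups with voom and limma 3.58.1 in R 4.3.3. CPM use TMM-scaled reads on tested genes, whereas shares and proportions are per counted read without scaling. The filter, the fit and the calling rule follow the study's methods as written, although the study counted more candidate mRNAs than the genes that passed here. The steps were tested on simulated data. Named with values in each library were the rRNAs, mt-Nd6, the mRNAs of highest and lowest level per kb, the mRNA of smallest p in each comparison and each called member. Of the nuclear lists, called genes and those with an adjusted p under 0.05 were named. Values of mt-Cytb, mt-Nd1 to mt-Nd4, mt-Co2, mt-Co3, mt-Atp6, mt-Atp8, mt-Tf and Tfam were added after they had been seen. The alternatives were edgeR, DESeq2 1.42.0, other scalings and read filters, other thresholds, a replicate block and each library left out. Counts of members with an adjusted p under 0.05 were added as a result after the data had been seen. Intervals between pools cover the spread among pools of 5 mice, not among animals.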

Additional observations from a re-analysis of the deposited data

How the results depend on the processing

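The male difference in mitochondrial share, 1.86 percentage points, was 1.82 to 2.32 points with the mRNAs alone, per read on other genes or after TMM scaling, and 1.5 to 2.19 with each library left out. With each library left out, the female difference of 0.602 ran from 0.285 (without NSF3) to 0.846 and the female minus male difference of −1.26 from −1.59 to −0.895. With the rRNAs alone the male difference was 0.0414 and the female minus male difference 0.00419. With each library left out, the difference between unstressed sexes ran from −0.635 to 0.0491 points. Of the 10 members past the adjusted threshold in males, quantile normalization gave 2 and the male libraries alone gave 2, whereas the other tools, scalings and filters gave 8 to 12. Quantile normalization gives each rank the same value in every library, and the 10 most-read genes are all members. It therefore cannot show a change that those 10 share. It took the median of the male mRNAs from 0.33 to 0.01, with 3 of 12 at an unadjusted p under 0.05 and 1 at an adjusted p. It turned mt-Co2 and mt-Co3 to −0.02 and mt-Nd5 to −0.01 in males, mt-Nd5 to −0.01 and mt-Tl1 to 0.01 in females, and mt-Rnr2 to 0.15 between unstressed sexes.

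With other thresholds, 1 member was called in males at an adjusted p with the fold, 14 at an unadjusted p with no fold, and 6 in the interaction with no fold. Of all 18593 genes, 256, 3992 and 1775 were called by these rules. Keeping genes with any read called 1 member in females and 1 in the interaction, beside 865 and 1350 of 27981 genes. The female libraries alone called 1, beside 347 of 18287 genes. Of the 60 machinery genes in males, 1 was called at an adjusted p, 9 with no fold and 1 with library size scaling. These rules called 256, 3992 and 1278 of all 18593 genes. In females 2 machinery genes were called with no fold, beside 786 of all genes. Of the 73 nuclear subunits, 22 were called in males with no fold, beside 3992 of all 18593 genes. The cause of these moves was not tested beyond the rules' own construction.

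Leaving out each library in turn gave 0 to 13 members called in males, beside 831 to 1615 of all genes. It gave 0 to 12 past the adjusted threshold, beside 79 to 972 of all genes, the libraries being named above. It gave 0 to 1 called in females (1 without NSF2, beside 647 of 18653 genes). In the interaction it gave 0 to 2 (2 without SF2, beside 672 of 18645 genes, and 1 without NSM1, NSM2, SM1 or NSF3). In males it gave 0 to 3 machinery genes (0 without NSM3, 1 without SM1 or SM2) and 0 to 3 nuclear subunits (3 without NSM1). Values that changed sign were those of mt-Tl1 in females (−0.20 to 0.20), Mtrf1 in females (−0.04 to 0.08), mt-Rnr1 and mt-Rnr2 in the interaction (−0.07 to 0.11 and −0.11 to 0.06) and mt-Co1 between unstressed sexes (−0.10 to 0.02). None of these had passed the test.

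A fit with the replicate number as a block gave 13 members past the adjusted threshold in males in place of 10. Over all genes that count went from 618 to 998. The number called was 2 in males and 0 in females, beside 1309 and 362 of all genes. Members at an unadjusted p under 0.05 went from 0 to 5 in females and from 6 to 11 in the interaction. The labels do not say what the numbers share, and they were not taken to pair the pools: deviations of same-numbered pools correlated at 0.0244, 0.000725 and 0.316 in males and at 0.1, 0.0756 and 0.107 in females, and 2 of 6 male and 6 of 6 female pools correlated best with their own number. Depth limits the tRNAs most, since 11 of 22 went untested and mt-Tl1 had 36 to 79 reads per library.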
